A study of Mus musculus with 6 samples.

Results

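The cytosolic ribosomal protein genes encode the proteins of the 40S and 60S subunits of the ribosome that translates nuclear mRNAs. Members were the genes with a probe set carrying a single symbol in GEO's array annotation that starts with Rpl or Rps followed by a digit, or is Rplp0, Rplp1, Rplp2 or Rpsa, without pseudogenes named -ps and without the Rps6k kinases. Where a gene had several such probe sets, the one with the highest mean signal stood for it. The rule found 50 genes among 18193 named genes. Of these, 20 encode proteins of the large subunit, 21 proteins of the small subunit and 2 proteins of the stalk, while 6 are paralogs of ribosomal protein genes. The last one, Rps19bp1, encodes a protein that binds Rps19 and is not itself a ribosomal protein.

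Gene expression was measured in mammary glands, taken whole from 6 females with a mixed 129/FVB/Black Swiss background and hybridised with 1 mouse on each array, in a study that looked for genes regulated by Brca1. The virgin mutant was Brca1 D11/D11;p53+/- and its control Brca1 D+/+;p53+/-, both 6 months of age. The pregnant mutant was Brca1 co/co/MMTV-Cre and its control Brca1 +/co/MMTV-Cre, both taken on day 16.5 of pregnancy at 5 months. The lactating mutant was again Brca1 D11/D11;p53+/- and its control Brca1 D+/+;p53+/-, both taken on day 1 of lactation at 2 months. Mutants and controls of the virgin and lactating pairs thus share the p53+/- genotype, and those of the pregnant pair share the Cre transgene, whose MMTV promoter acts mainly in mammary epithelium. The design text describes every mutant as D11/D11;p53+/-. The genotypes here follow the sample labels. The array titles of the lactating pair carry another date than those of the other arrays, so that stage, age and array date cannot be told apart in any comparison with lactating glands. The labels name p53+/- only in the virgin and lactating pairs and Cre only in the pregnant pair. Stage, genotype and age thus cannot be told apart in any comparison with pregnant glands.

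Ribosomal proteins are made in near equal amounts and assembled with ribosomal RNA in the nucleolus. Their mRNAs are among the most abundant of a cell, and most begin with a short run of pyrimidines, the 5' TOP motif, through which mTOR signalling controls their translation. In the mammary gland, the alveolar epithelium grows during pregnancy and turns to the synthesis of milk proteins around birth. An array measures mRNA per unit of total mRNA and not ribosomes. In whole glands, fewer cells of a type and less RNA per cell cannot be told apart.

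Every array had a 2%-trimmed mean signal of 500, while the array medians lay between 119.9 and 230.8. The probe sets of Y-linked genes, which should be dark in these females, had a median of 33.6 and a 90th percentile of 184.59. The 7 markers of milk-secreting cells called between pregnant and virgin glands, of 10, were all higher in pregnant glands, as were the 7 called between lactating and virgin glands. All 9 skeletal muscle markers were higher in pregnant than in virgin glands, and their summed signal was 12575 in the virgin mutant, 36175 in the virgin control, 152598 in the pregnant mutant, 138038 in the pregnant control, 67893 in the lactating mutant and 72177 in the lactating control. Brca1 itself had 487 in the virgin mutant against 137 in its control, 288 in the pregnant mutant against 159 in its control, and 157 in the lactating mutant against 238 in its control. The place of this probe set relative to exon 11 was not looked up, so its signal does not check the labels.

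Sequence features that the choice of members did not use were compared between the start regions of members and of all genes. RefSeq promoters of GRCm38.p6 ran from 250 bases before to 50 bases after the annotated start. They were matched for 44 of the 50 members, which have 52 promoters. Promoters on the chromosome that carries Rps14 were left out, so Rps14 could not be matched. All promoters below means the 32851 that were kept. A run of at least 8 bases of C or T was searched in the 50 bases from 30 before to 20 after the start. It lay in 44.2% of the member promoters, against 20.2% of the 32851 promoters kept. The median of the longest such run was 7 bases in the members and 5 in all promoters. The ETS family core CCGGAAG, searched on both strands in the whole 300 bases, lay in 40.4% of the member promoters against 8.86% of all promoters. The Sp1 box GGGCGG lay in 53.8% against 35.7%, the YY1 core AAGATGGC in 7.69% against 2.75%, the E-box CACGTG in 9.62% against 7.15% and the TATA box TATAAA in 11.5% against 13.6%. A match is a description of letters and not of a factor's binding.

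The 50 bases around the start are shown for members that differed between stages, and for Rpl35, which was called in no comparison. Each runs 5' to 3', with the longest run of C or T in capitals, and is followed by its place in GRCm38.p6. Where runs are equally long, as in Rps27l, the first is in capitals. Rps27l and Rpl3l have 2 listed starts each, and the window of the first listed is shown.
Rpl35: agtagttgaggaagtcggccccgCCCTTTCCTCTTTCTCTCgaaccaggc
Rps18: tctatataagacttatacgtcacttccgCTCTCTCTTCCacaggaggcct
Rpl38: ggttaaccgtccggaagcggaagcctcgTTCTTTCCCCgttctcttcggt
Rpl27a: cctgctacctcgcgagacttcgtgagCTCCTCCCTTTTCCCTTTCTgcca
Rpl37: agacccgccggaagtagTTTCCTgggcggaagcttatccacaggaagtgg
Rpl39: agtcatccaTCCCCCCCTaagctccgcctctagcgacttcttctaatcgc
Rps27l: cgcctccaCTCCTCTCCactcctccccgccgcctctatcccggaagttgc
Rpl39l: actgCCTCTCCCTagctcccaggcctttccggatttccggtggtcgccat
Rpl3l: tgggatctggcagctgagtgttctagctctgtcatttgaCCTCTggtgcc

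These windows lie at chr2:39005112-39005161 on the minus strand for Rpl35, chr17:33955646-33955695 on the minus strand for Rps18, chr11:114668550-114668599 on the plus strand for Rpl38 and chr7:109519165-109519214 on the plus strand for Rpl27a. They lie at chr15:5116583-5116632 on the plus strand for Rpl37, chrX:37085203-37085252 on the minus strand for Rpl39 and chr9:66946056-66946105 on the plus strand for Rps27l. For the paralogs Rpl39l and Rpl3l they lie at chr16:10170198-10170247 and chr17:24727796-24727845, both on the plus strand. Counting the first transcribed base as 1 and the base before it as -1, the run begins at -7 in Rpl35, at -2 in Rps18, at -2 in Rpl38 and at -4 in Rpl27a, and in these 4 genes it crosses the annotated start. In Rpl37, Rpl39, Rps27l and Rpl39l it begins at -13, -21, -22 and -26 and ends before the start. In Rpl3l the longest run is 5 bases and begins at 10.

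Most members were bright on every array. For 36 of the 50, the mean signal was 10000 or more, between 10361 for Rps27l and 43319 for Rps29, and for the other 14 it was between 16.3 and 6084. Signals of different probe sets also depend on their probes, so these levels do not rank the genes. Of the 14 dimmer members, 9 have their symbol on further probe sets that name several genes and were not used under a gene's name. Rps29, a zinc finger protein of the small subunit, had 43884 in the virgin mutant, 41762 in the virgin control, 39269 in the pregnant mutant, 37711 in the pregnant control, 49205 in the lactating mutant and 48082 in the lactating control. Rpl41, the smallest protein of the large subunit, had 34652 and 35224 in the virgin mutant and control, 30925 and 36244 in the pregnant mutant and control, and 50008 and 46504 in mutant and control glands at lactation. Rps3a1, a protein of the small subunit, had 44965 and 39973 in the virgin mutant and control, 35522 and 42037 in the pregnant mutant and control, and 34227 and 34593 in mutant and control glands at lactation. At the dim end, Rps16 had between 2 and 29.7 on the 6 arrays, within the range of the Y-linked probe sets, and was the 1 member that did not pass the filter on low values. Its other probe sets name several genes.

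**Figure D1:**
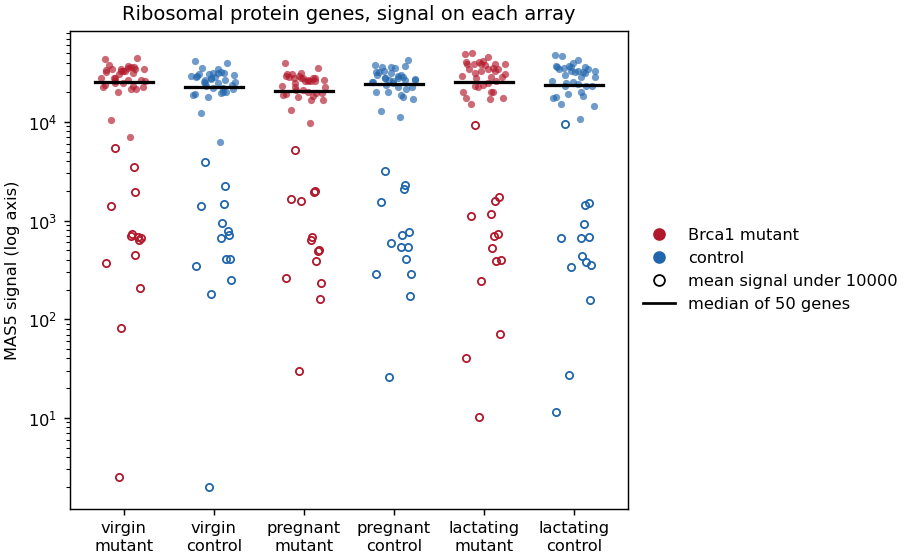
MAS5 signal (log axis) of the 50 members on each of the 6 arrays, mutant left of control within each stage. Each point is 1 gene, open points are genes with a mean signal under 10000, and black lines are medians over the 50 genes, which lie between 20425 in the pregnant mutant and 25415 in the virgin mutant.

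The signal of bright members varied little between mice. Over the 6 arrays, the coefficient of variation of the 36 bright members ran from 7.78% for Rps9 to 37.7% for Rps27l, with a median of 11.5%. Rpl35 had 27942 and 29226 in the virgin mutant and control, 23251 and 25209 in the pregnant mutant and control, and 29396 and 26167 in mutant and control glands at lactation. Summed over the 50 members, the signal was 5.53% of the summed signal of all named genes in the virgin mutant and 4.83% in its control, 4.78% in the pregnant mutant and 5.12% in its control, and 5.96% in the lactating mutant and 5.79% in its control. Both lactating arrays had the highest shares with the values as deposited. After quantile normalization the virgin mutant was highest with 5.51%, above 5.36% in the lactating mutant and 5.42% in its control, and the lowest share was 5.19%.

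Members on the X chromosome, where the study looked for Brca1 targets, were Rps4x and Rpl39. Rps4x, a protein of the small subunit, had 35962 and 32217 in the virgin mutant and control, 26225 and 30196 in the pregnant mutant and control, and 28416 and 28724 in mutant and control glands at lactation. Its mutant to control log2 ratio was -0.02 ± 0.16 (SE, 3 pairs), with the mutant higher in the virgin pair and lower in the other pairs. Rpl39, a small protein of the large subunit near the exit tunnel, had a ratio of -0.17 ± 0.19. Neither passed the test, with limma adjusted p-values of 0.989 and 0.949.

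No ribosomal protein gene was called between Brca1 mutants and controls. Of the 49 members tested, 0 passed an adjusted p of 0.05 in limma with stage as a block, and 0% of all 11562 tested genes did. At an unadjusted p under 0.05 there were 0 members and 537 genes in all. The lowest adjusted p was 0.945 among members and over all genes. The median log2 ratio, on the log2(signal + 52.1) scale used throughout, was 0.04 over the members and 0.03 over all tested genes. The members' median was -0.01 when any array of the virgin or the lactating pair was left out. All but 1 of the 49 members lay within 0.5 of 0, and the exception was Rpl39l.

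In all 3 pairs 8 members, or 16.3%, were higher in the mutant and 1, or 2.04%, was lower, beside 15.0% and 10.6% of all tested genes. Among them, the 4 higher members with the largest moderated statistics and the lower one are described here, and none passed the test. Rpl12, a protein at the base of the stalk, had 691 in the virgin mutant against 660.4 in its control, 629 in the pregnant mutant against 537 in its control and 1169.6 in the lactating mutant against 666 in its control. Most of its fitted ratio of 0.35 ± 0.20 comes from the lactating pair, where the log2 ratio was 0.77, against 0.06 in the virgin and 0.21 in the pregnant pair. Rpl7l1, a paralog of Rpl7, had 1415 in the virgin mutant against 1397 in its control, 1651 in the pregnant mutant against 1549.9 in its control and 1111 in the lactating mutant against 667 in its control. Its fitted ratio was 0.27 ± 0.19, again with the widest gap in the lactating pair. Rps24 and Rps28, proteins of the small subunit, had fitted ratios of 0.15 ± 0.16 and 0.09 ± 0.15. Rpl39l, a paralog of Rpl39 best known from male germ cells, had 207 in the virgin mutant against 412 in its control, 162 in the pregnant mutant against 171 in its control and 70.9 in the lactating mutant against 157 in its control. Its fitted ratio was -0.56 ± 0.27, and 4 of its 6 signals lay under the 90th percentile of the Y-linked probe sets. The adjusted p-values of these 5 genes lay between 0.945 and 0.973 in limma.

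With the values as deposited, the direction of the mutant to control ratio changed with the pair. In the virgin pair 39 of 49 members were higher in the mutant, with a median log2 ratio of 0.12. In the pregnant pair 11 were higher in the mutant and 38 lower, with a median of -0.13. In the lactating pair 39 were higher in the mutant, with a median of 0.10. Over all tested genes the medians were 0.02, 0.02 and 0.04, with 52.1%, 52.4% and 54.1% of genes higher in the mutant. The pattern of higher, lower and higher was shown by 23 of 49 members, or 46.9%, and by 13.6% of all tested genes. Some lists of related genes, described below, had this order too. Of 31 tested initiation factors 22, 5 and 22 were higher in the mutant, with medians of 0.12, -0.15 and 0.10. The elongation factor list had medians of 0.26, -0.08 and 0.10, and the RNA polymerase I machinery 0.14, -0.03 and 0.02. The last value lay below the 0.04 of all tested genes, with 8 genes higher and 7 lower in the mutant. The lists of ribosome biogenesis, mitochondrial ribosomal proteins, mTOR and Myc control, and TOP genes had other median signs. Each pair is 1 mouse against 1 mouse, so these ratios have no replicate and no test, and the difference between the pairs was not tested. Pair medians under other scalings are not given here. After quantile normalization the members' share of summed signal was 5.23% in the pregnant mutant and 5.19% in its control. It was 5.36% in the lactating mutant and 5.42% in its control. Within these pairs the shares were thus ordered opposite to the medians above.

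**Figure D2:**
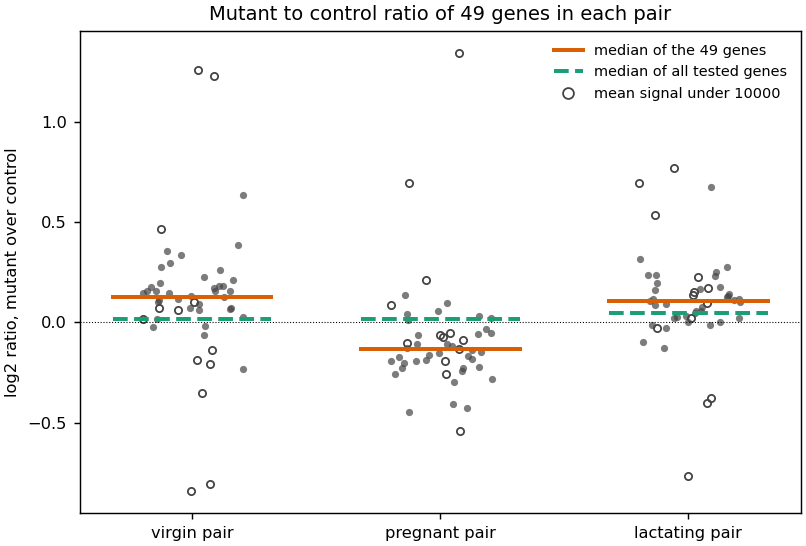
Log2 ratio of mutant to control for the 49 tested members in each pair, 1 mouse against 1. Open points are members with a mean signal under 10000, orange lines the members' medians (0.12, -0.13 and 0.10) and dashed green lines the medians of all tested genes (0.02, 0.02 and 0.04).

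Rplp0 and Rpl8 are examples of this order. Rplp0, the large protein of the stalk that binds translation factors, had 31113 in the virgin mutant against 20047 in its control, 27778 in the pregnant mutant against 28824 in its control and 34983 in the lactating mutant against 32268 in its control. Rpl8, a large subunit protein near the peptidyl transferase centre, had 22692 in the virgin mutant against 18745 in its control, 18612 in the pregnant mutant against 25368 in its control and 20042 in the lactating mutant against 17516 in its control. Both genes had their lower mutant signal in the pregnant pair. The 110 probe sets that carry a ribosomal protein symbol among several showed medians of 0.11 in the virgin pair, -0.11 in the pregnant pair and 0.09 in the lactating pair.

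Measures of RNA quality and of cell types moved between the same arrays. The ratio of 3' to 5' signal of the actin controls was 2.03 in the virgin mutant against 2.74 in its control, 1.43 in the pregnant mutant against 1.37 in its control and 1.58 in the lactating mutant against 1.91 in its control. For the Gapdh controls it was 1.52 in the virgin mutant against 3.50 in its control, 0.80 in the pregnant mutant against 0.73 in its control and 1.20 in the lactating mutant against 1.09 in its control. The 4 luminal cell markers had a summed signal of 34610 in the virgin mutant against 32652 in its control, 27645 in the pregnant mutant against 37099 in its control and 48093 in the lactating mutant against 28886 in its control. The 10 markers of milk-secreting cells had a summed signal of 166196 in the virgin mutant against 130530 in its control, 274620 in the pregnant mutant against 375308 in its control and 426940 in the lactating mutant against 402360 in its control. The summed markers of luminal, milk-secreting and myoepithelial cells were higher in the virgin and lactating mutants and lower in the pregnant one. The sums for adipocytes, skeletal muscle, T cells, B and plasma cells, macrophages, endothelium and fibroblasts did not show this order. The part of RNA quality and of cell types in the ribosomal protein ratios was not tested.

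Between pregnant and virgin glands, Rpl3l was the 1 ribosomal protein gene that passed the test. It was 1 of 49 members, or 2.04%, against 14.6% of all 11562 tested genes, of which 6.56% were higher and 8.03% lower in pregnant glands. The members' median log2 ratio was -0.13 and that of all tested genes -0.06, and 38 of 49 members were lower in pregnant glands without passing the test. Without the pregnant mutant array the members' median was 0.01. Rpl3l, the paralog of Rpl3 that skeletal muscle and heart express, had 1589 and 596 in the pregnant mutant and control against 81.1 and 180.5 in the virgin mutant and control. Its log2 ratio was 2.55 ± 0.48 (SE), or 5.86-fold, with a limma adjusted p of 0.0152. The adjusted p was 0.0683 without the virgin mutant array and 0.0606 without the pregnant mutant array, where the log2 ratio was 1.58.

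Rpl3l stood beside the muscle markers given above, all 9 of which were higher in pregnant glands with a median log2 ratio of 3.04. Both pregnant arrays had the highest muscle sums and the highest Rpl3l signals, although the muscle sums of the pregnant pair were close while its Rpl3l signals were not. In lactating glands Rpl3l had 245 and 340.2 in the mutant and control, lower than in pregnant glands by a log2 ratio of -1.59 ± 0.48 with a limma adjusted p of 0.0385, and 6 of the 9 muscle markers were lower too. Without the pregnant mutant array that ratio was -0.62 and its adjusted p 0.354, and without the lactating mutant array the adjusted p was 0.116. The part of muscle tissue in this result was not tested.

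Other members had lower values in pregnant than in virgin glands that did not pass the test. Rplp2, an acidic stalk protein that helps to recruit elongation factors, had 26069 and 28097 in the pregnant mutant and control against 36674 and 34446 in the virgin mutant and control, a log2 ratio of -0.39 ± 0.19 and a limma adjusted p of 0.208. Rps25, a small subunit protein used by some viral internal ribosome entry sites, had 491 and 544 in the pregnant mutant and control against 680.4 and 793 in the virgin ones, a ratio of -0.47 ± 0.21 and an adjusted p of 0.17. For both genes the pregnant and virgin arrays did not overlap. Rps27l had a ratio of 0.65 ± 0.24 and an adjusted p of 0.117.

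The ribosomal protein genes that passed the test between lactating and virgin glands went both ways. Of 49 members 8 were called, or 16.3%, against 52.7% of all tested genes, of which 24.2% were higher and 28.5% lower in lactating glands. Rpl39, Rps27l and Rpl37 were higher, and Rps4l, Rpl27a, Rpl39l, Rps19bp1 and Rpl7l1 were lower. Without the virgin mutant array 4 members were called, without the virgin control array 3 and without the lactating mutant array 5. The members' median log2 ratio was 0.14 with the values as deposited, where that of all genes was -0.10, but 0.01 after quantile normalization and -0.45 after centring on array medians, where that of all genes was -0.69. Under that centring 17 members were called, all lower, beside 61.3% of all tested genes called in either direction. The direction of the whole group against virgin glands thus depends on the scaling. Relative to all genes it was 0.24 with the values as deposited and under centring, and 0.14 after quantile normalization.

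Against pregnant glands, 8 of 49 members were called in lactating glands, or 16.3%, compared with 32.6% of all tested genes, of which 15.5% were higher and 17.2% lower. Rpl39, Rpl37, Rps18 and Rpl38 were higher, and Rps4l, Rpl3l, Rpl27a and Rpl7l1 lower. Without the pregnant mutant or the pregnant control array 2 members were called, and without the lactating mutant array 4. The members' median log2 ratio was 0.21, with -0.03 for all genes, and turned to -0.20 after median centring, with -0.44 for all genes. The comparisons of lactating glands share the lactating arrays, so their calls are not independent of each other.

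**Figure D3:**
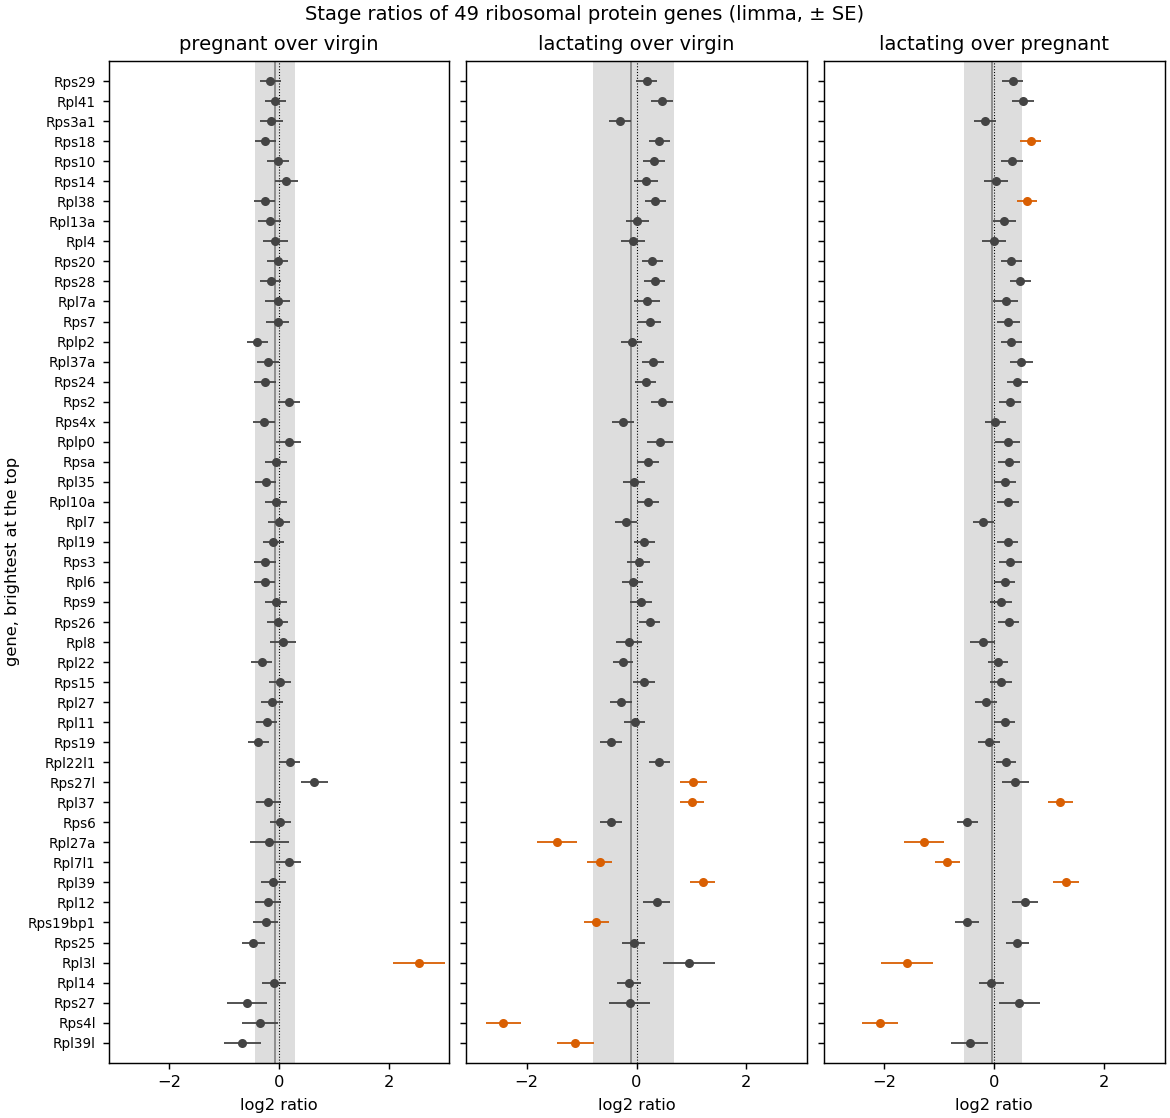
Fitted log2 ratios (points, ± SE from limma) of the 49 tested members for pregnant over virgin, lactating over virgin and lactating over pregnant glands, ordered by mean signal with the brightest at the top. Orange marks an adjusted p under 0.05, the grey band the interquartile range of all tested genes and the grey line their median. Most members lie inside the band, and most called ones are among the dimmer genes at the bottom.

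Bright members are set here beside other genes of like signal. Of the 36 members with a mean signal of 10000 or more, 35 had a lactating to virgin log2 ratio within 0.5 of 0, against 47.9% of the 194 other genes this bright, and 1 member was called (2.78%) against 47.4% of those genes. For lactating over pregnant glands, 33 of the 36 lay within 0.5 and 2 were called, against 63.4% and 25.8% of the other bright genes. For pregnant over virgin glands, 35 lay within 0.5 and 0 were called, against 63.4% and 21.6%. These shares are descriptions without a test, and saturation of bright spots was not tested.

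Among large subunit genes, the probe set of Rpl39 was higher in lactating glands. It had 636 and 706 in the virgin mutant and control, 507 and 763 in the pregnant mutant and control, and 1714 and 1514 in mutant and control glands at lactation. Both lactating arrays lay above the other 4, with a log2 ratio of 1.20 ± 0.23 over virgin glands (2.3-fold, limma adjusted p = 0.00426) and of 1.30 ± 0.23 over pregnant glands (adjusted p = 0.00769). The first call held without any single array, and the second had an adjusted p of 0.0715 without the pregnant mutant array. After median centring the ratio over virgin glands was 0.61 with an adjusted p of 0.0749. Rpl39, Rpl37 and Rpl27a are dimmer members, with mean signals of 973, 6084 and 1759. Their symbols also lie on probe sets that name several genes, which were not looked at gene by gene. Their ratios, here and below, are those of the probe sets used.

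Rpl37, a zinc finger protein of the large subunit, had 5453 and 3941 in the virgin mutant and control, 5173 and 3173 in the pregnant mutant and control, and 9284 and 9479 in mutant and control glands at lactation. Again both lactating arrays lay above all others. The log2 ratio was 1.01 ± 0.22 over virgin glands, with a limma adjusted p of 0.00769, and 1.20 ± 0.22 over pregnant glands, with an adjusted p of 0.00891. Median centring brought the ratio over virgin glands to 0.42 with an adjusted p of 0.17. Without the virgin control array the adjusted p over virgin glands was 0.0588, and without the pregnant control array that over pregnant glands was 0.0658.

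Rpl27a, a large subunit protein, went the other way. It had 3482 and 1460.4 in the virgin mutant and control, 1938 and 2067 in the pregnant mutant and control, and 691 and 913 in mutant and control glands at lactation. The lactating arrays were the lowest of the 6, and the virgin mutant stood well above the rest. The log2 ratio was -1.45 ± 0.36 against virgin glands (2.73-fold lower, limma adjusted p = 0.0122) and -1.28 ± 0.36 against pregnant glands (adjusted p = 0.0327). Without the virgin mutant array the ratio against virgin glands was -0.72 with an adjusted p of 0.0864, and without the lactating mutant array its adjusted p was 0.0542. The call against pregnant glands was lost without the pregnant mutant, pregnant control or lactating mutant array, with adjusted p-values of 0.0655, 0.17 and 0.127. With the mean of the gene's probe sets in place of the brighter one, the ratio against pregnant glands was -0.70 with an adjusted p of 0.414.

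Rpl38, a large subunit protein needed for the translation of homeobox mRNAs in mouse embryos, had 41119 and 39783 in the lactating mutant and control against 27616 and 25830.0 in the pregnant mutant and control. Its log2 ratio was 0.60 ± 0.19, with a limma adjusted p of 0.0456. Rps18, a protein of the head of the small subunit, had 45598 and 42739.7 in the lactating mutant and control against 26877 and 28979 in the pregnant mutant and control, a log2 ratio of 0.66 ± 0.19 and an adjusted p of 0.0372. For both genes the lactating arrays lay above the 4 others, with 32622 and 31306 for Rpl38 and 34839 and 31528 for Rps18 in the virgin mutant and control. The calls stood close to the threshold, and of 16 alternatives each, 12 lost the call for Rpl38 and 10 that for Rps18, with adjusted p-values up to 0.568 and 0.449. The next probe sets of Rps18, with mean signals of 24293 and 21683, both had a ratio of 0.67.

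**Figure D4:**
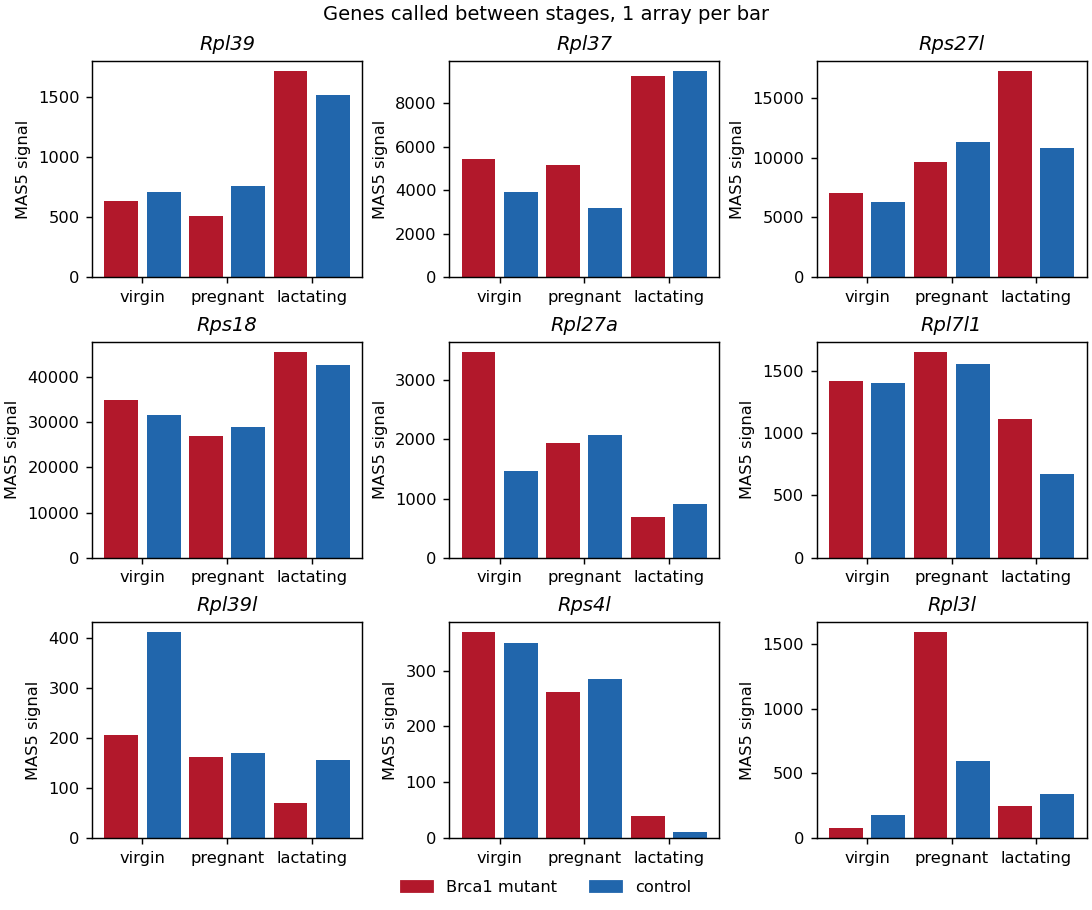
MAS5 signal of 9 members called between stages, 1 array per bar, mutant left of control within each stage, each panel with its own axis from 0. Rpl39, Rpl37 and Rps18 are highest on both lactating arrays, Rpl27a, Rpl7l1 and Rps4l lowest, and Rpl3l is highest in the pregnant mutant with 1589.

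Of the 6 paralogs, 4 were called between lactating and virgin glands, 1 higher and 3 lower, beside 52.7% of all tested genes. Rps27l, a paralog of Rps27 whose human counterpart is a p53 target gene, had 7007 and 6273 in the virgin mutant and control, 9637 and 11274 in the pregnant mutant and control, and 17213 and 10764 in mutant and control glands at lactation. The lactating and pregnant arrays overlapped, and both lay above the virgin ones. Its log2 ratio over virgin glands was 1.03 ± 0.24 with a limma adjusted p of 0.00982, and its other probe sets had 0.75 and 1.02. The call was lost without the virgin mutant, virgin control or lactating mutant array, with adjusted p-values of 0.0523, 0.0506 and 0.0637, and after median centring the ratio was 0.44 with an adjusted p of 0.224. Rps27 itself, a zinc finger protein of the small subunit, had 399 and 355 in the lactating mutant and control against 671 and 250.2 in the virgin mutant and control, so that the groups overlapped.

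Rps4l, an autosomal paralog of Rps4x, had 369 and 349 in the virgin mutant and control, 262 and 284 in the pregnant mutant and control, and 40.1 and 11.6 in mutant and control glands at lactation. Both lactating signals lay well under the 90th percentile of the Y-linked probe sets, so that the size of the fold is poorly measured. The log2 ratio was -2.42 ± 0.33 against virgin glands, with a limma adjusted p of 0.000988, and -2.08 ± 0.33 against pregnant glands, with an adjusted p of 0.00522 that was 0.0519 without the pregnant control array. The call against virgin glands held under all 14 alternatives that tested the gene, the highest adjusted p being 0.0174. Rps4x, with lactating signals of 28416 and 28724 against 35962 and 32217 in virgin glands, had a log2 ratio of -0.25 ± 0.20 and an adjusted p of 0.313.

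Rpl39l had 70.9 and 157 in the lactating mutant and control against 207 and 412 in the virgin mutant and control, a log2 ratio of -1.11 ± 0.33 and a limma adjusted p of 0.0253. Its partner Rpl39 was higher over the same contrast. Rpl39l was not called without the virgin mutant, virgin control or lactating mutant array, with adjusted p-values of 0.0738, 0.243 and 0.0726. Rpl7l1 had 1111 and 667 in the lactating mutant and control, lower than virgin glands by a log2 ratio of -0.67 ± 0.23 and lower than pregnant glands by -0.85 ± 0.23, with adjusted p-values of 0.0412 and 0.0284. Against virgin glands 8 of its 16 alternatives lost the call, and without the lactating control array the ratio was -0.35. Against pregnant glands the call was lost without the pregnant mutant, pregnant control or lactating control array, with adjusted p-values of 0.0938, 0.188 and 0.139, and in the last case the ratio was -0.53. Rpl7, its bright partner, had 22943 in both lactating arrays against 27876 and 24593 in the virgin mutant and control, a ratio of -0.19 ± 0.20 and an adjusted p of 0.435. Rpl22l1, a paralog of the large subunit protein Rpl22, had 15236 and 15026 in the lactating mutant and control, above 10458 and 12291 in the virgin ones, with a ratio of 0.41 ± 0.19 and an adjusted p of 0.101.

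Outside the ribosome itself, Rps19bp1 had 524 and 439.8 in the lactating mutant and control against 732 and 949.5 in the virgin mutant and control. Its log2 ratio was -0.74 ± 0.23 with a limma adjusted p of 0.0273. The call was lost without the virgin control or lactating control array, with adjusted p-values of 0.242 and 0.151.

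The remaining classical members were not called between stages. Among large subunit genes the lactating to virgin log2 ratios of the 20 tested members ran from -1.45 for Rpl27a to 1.20 for Rpl39 with a median of -0.01, and among the 20 tested small subunit genes from -0.47 to 0.46 with a median of 0.17. Rps19, a small subunit protein mutated in Diamond-Blackfan anaemia, had the lowest ratio of the small subunit, with 17424 and 14368 in the lactating mutant and control against 22395 and 21388 in the virgin mutant and control and an adjusted p of 0.0772. Rps6, the substrate of S6 kinases and a readout of mTOR signalling at the protein level, had 1581 and 1435 in the lactating mutant and control against 1961 and 2239 in the virgin mutant and control, with a ratio of -0.46 ± 0.20 and an adjusted p of 0.0809. In both genes all lactating signals lay under the virgin ones, as in other members such as Rps4x and Rps3a1. The share of all tested genes with such a gap was not counted. Rpsa, the small subunit protein also known as the laminin receptor, had 31278 and 29613 in the lactating mutant and control against 26147 and 26448 in the virgin ones, a ratio of 0.21 ± 0.20 and an adjusted p of 0.4. Rplp0 had a ratio of 0.43 ± 0.23 and Rplp2 one of -0.09 ± 0.19.

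Different probe sets of a gene did not always give the same direction. Of 18 members with several probe sets at a mean signal of 1000 or more, 9 had the same sign of the lactating to virgin ratio in all of them. Rps7 had log2 ratios of 0.24 and -0.74 in its probe sets, whose mean signals were 32044 and 24145. Rpl22 had -0.24, -0.81 and -1.48, with the steepest in its dimmest probe set. Rps15 had 0.14 and -0.77. For Rps28 and Rps20 all such probe sets were higher in lactating glands, between 0.23 and 0.48. The 110 probe sets with a ribosomal protein symbol among several had a median lactating to virgin ratio of -0.07.

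Genes that build or use ribosomes were compared over the same arrays. Of 66 tested ribosome biogenesis factors, 23 were lower and 3 higher in lactating than in virgin glands, beside 28.5% lower and 24.2% higher among all tested genes, with a median of -0.37. Against pregnant glands 23 were lower and 1 higher, beside 17.2% and 15.5% of all tested genes, with a median of -0.28. After quantile normalization 20 were lower and 3 higher against virgin glands, and 20 and 1 against pregnant glands. After median centring 43 were lower and 0 higher against virgin glands, and 30 and 0 against pregnant glands. There the medians of all tested genes were -0.69 and -0.44. The shares of all tested genes called in each direction under quantile normalization and centring are not given here. These counts thus have no background beside them. The medians of the factors were below 0 under each scaling, as were those of all tested genes. Relative to all tested genes, the factors' median against virgin glands was -0.27 as deposited and under centring, and -0.18 after quantile normalization. Against pregnant glands it was -0.25, -0.25 and -0.28 in that order. Markers of several other cell types were called lower in the same lactating glands, beside 28.5% of all tested genes. Against virgin glands these were 6 of 6 markers of fibroblasts, 5 of 5 of T cells, 4 of 4 of B and plasma cells, 5 of 6 of macrophages and 5 of 6 of adipocytes, with median log2 ratios of -3.26, -2.22, -2.40, -1.68 and -2.51. Of endothelial markers 3 of 4 were called lower (median -1.24). Not all cell types fell, beside the milk-secreting markers given above. Of skeletal muscle markers 7 of 9 and of myoepithelial markers 3 of 5 were called higher, with medians of 1.85 and 0.63. Of 4 luminal markers 0 were called. The summed fibroblast signal was 16926 in the lactating mutant and 11428 in its control, against 100831 in the virgin mutant and 100921 in its control. The part of these cells in the stage ratios was not tested. Ncl, the nucleolar protein nucleolin, had 3771 and 3842 in the lactating mutant and control against 14429.7 and 11117 in the virgin mutant and control, a log2 ratio of -1.72 ± 0.20 with a limma adjusted p of 0.000532. Npm1, nucleophosmin, had 7038 and 6831 in lactating glands, mutant and control, against 22081 and 15323 in the virgin ones, a ratio of -1.40 ± 0.23 with an adjusted p of 0.00203. Nop58, a core protein of box C/D ribonucleoproteins that guide rRNA methylation, had 598 and 317 in the lactating mutant and control against 1825 and 1199 in the virgin ones, a ratio of -1.65 ± 0.23 with an adjusted p of 0.00108. In each of these genes all lactating signals lay under the virgin and pregnant ones. Between mutants and controls 58 of the 66 factors had higher fitted values in mutants, with a median log2 ratio of 0.19, while 55.6% of all tested genes did, and 0 factors passed the test. By pair, 49 were higher in the virgin mutant (median 0.15), 34 in the pregnant mutant (0.02) and 60 in the lactating mutant (0.38). Tcof1, a nucleolar factor of rRNA transcription, had 530.1 in the virgin mutant against 308 in its control, 359.9 in the pregnant mutant against 239.6 in its control and 289.7 in the lactating mutant against 165 in its control, with an unadjusted p of 0.0168 and an adjusted p of 0.945.

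The list of elongation factors also held the related genes Eef1e1 and Tpt1. Of its 8 tested genes, 4 were higher and 0 lower in lactating than in virgin glands. Among all tested genes 24.2% were higher and 28.5% lower. The higher genes were Eef1a2, Eef2, Eif5a and Eef1e1. Eef1a2 had the largest log2 ratio, 1.47 ± 0.25. Its signals were 1831 and 2201 in the lactating mutant and control against 870 and 545 in the virgin ones. They were highest in the pregnant mutant and control, with 2612 and 2502. Eef2, the translocase of elongation, had 30979.9 and 28686 in the lactating mutant and control against 17192 and 14703 in the virgin mutant and control, a log2 ratio of 0.90 ± 0.19 with a limma adjusted p of 0.00618. The list's median was 0.54 with the values as deposited and -0.05 after median centring, where 1 gene was higher and 1 lower. Eef2 then had a ratio of 0.32 with a limma adjusted p of 0.288. Of 31 tested initiation factors, 3 were higher and 8 lower in lactating than in virgin glands, against 5 and 5 after quantile normalization and 0 and 19 after median centring. Relative to all tested genes their median was -0.03 as deposited and under centring, and 0.20 after quantile normalization. Eif3m, a subunit of the eIF3 complex, had the lowest p with 1319 and 1667 in the lactating mutant and control against 4669 and 4325 in the virgin ones and a ratio of -1.57 ± 0.20 (adjusted p = 0.000768). Of 76 tested mitochondrial ribosomal proteins, which make up the separate ribosome of that organelle, 8 were higher and 24 lower than in virgin glands, where 24.2% and 28.5% of all tested genes were. Against pregnant glands 0 were higher and 25 lower, where 15.5% and 17.2% of all tested genes were. After median centring 0 were higher and 47 lower against virgin glands, and 0 and 48 against pregnant glands, where the medians of all tested genes were -0.69 and -0.44. Relative to all tested genes the medians of the mitochondrial list were -0.17 and -0.38, both as deposited and under centring. Mrps10 and Mrpl18 had the smallest p in that list with log2 ratios of -1.58 ± 0.20 and -1.63 ± 0.21 against virgin glands.

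Of 15 genes of the RNA polymerase I machinery, 1 was higher and 3 lower in lactating than in virgin glands, and 0 and 6 after median centring. Among all tested genes 24.2% were higher and 28.5% lower in this comparison with the values as deposited. Relative to all tested genes the median of this list was -0.01 as deposited and under centring. The higher one was Ubtf, an activator of rRNA transcription, with 2664 and 1808 in the lactating mutant and control against 1129 and 1059 in the virgin mutant and control, a log2 ratio of 0.97 ± 0.20. After median centring Ubtf had a ratio of 0.38 with an adjusted p of 0.217. Ttf1, the terminator of rRNA transcription, was lower by -1.40 ± 0.29. Among 7 tested TOP and ribosomal protein genes outside the symbol rule, 3 were lower than in virgin glands, and 6 after median centring. Relative to all tested genes their median was -0.27 as deposited and under centring, and -0.06 after quantile normalization. The 3 called with the values as deposited were Nap1l1, a histone chaperone, at -2.28 ± 0.20, Gas5, a noncoding host of small nucleolar RNAs, at -1.37 ± 0.18, and Btf3, a subunit of the nascent polypeptide associated complex, at -1.28 ± 0.20. Of 21 tested genes of mTOR and Myc control, 3 were higher and 6 lower than in virgin glands, beside the same shares of all tested genes. Akt1s1, the mTORC1 subunit PRAS40, was higher by 2.17 ± 0.27, Larp1, which binds TOP mRNAs, by 1.11 ± 0.19, and Myc, an activator of ribosome production, was lower by -2.01 ± 0.42. All of these passed the limma test, and after median centring Larp1 had a ratio of 0.52 with an adjusted p of 0.0813. The list held 7 higher and 5 lower genes after quantile normalization, and 1 higher and 9 lower after median centring. Relative to all tested genes its median was 0.27 as deposited and under centring, and 0.22 after quantile normalization. For none of these lists are the shares of all tested genes called in each direction under the other scalings given here.

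**Figure D5:**
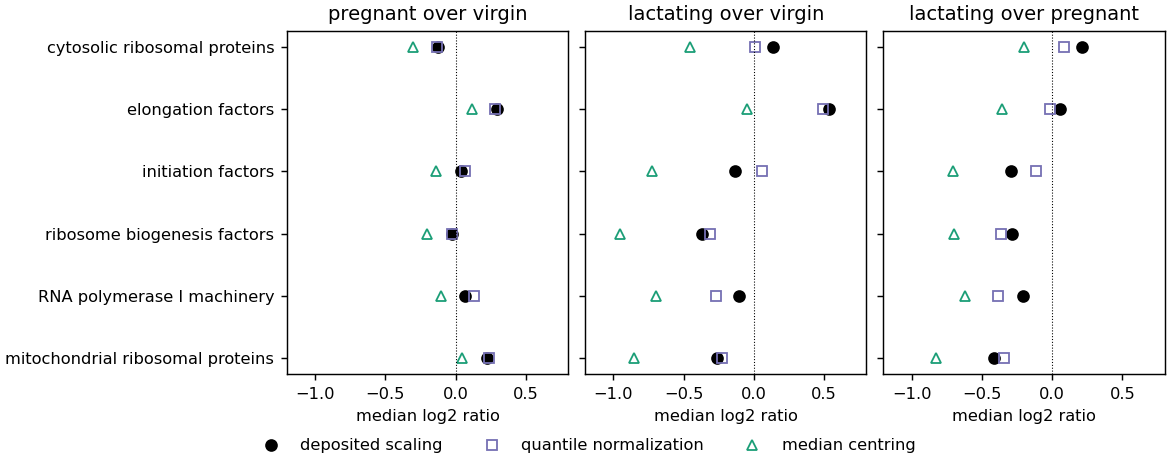
Median fitted log2 ratio of the ribosomal protein genes and of 5 lists of related genes in the 3 stage comparisons, with the values as deposited (black), after quantile normalization (squares) and after centring on array medians (triangles). For lactating over virgin glands the ribosomal protein median is 0.14, 0.01 and -0.45 under these scalings. That of ribosome biogenesis factors is below 0 under each, as is that of all tested genes (-0.10, -0.14 and -0.69).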

How the data were processed

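Total RNA of 6 glands was measured on biotin-labelled Mouse430_2 arrays, per the labels. The deposited values are signal intensities that the authors made with MAS5, per the submitters' processing notes, on a linear scale and already scaled. No MAS5 version is given. Detection calls and scanner values were not used here.

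Of 45101 probe sets, 34945 carried 1 gene symbol, 932 several, 9160 none here and 64 were controls. Of the named genes, 18031 matched a RefSeq table of GRCm38.p6 by gene ID. Values became log2(signal + 52.1), the pseudocount being the 25th percentile. Ratios on this scale understate changes of dim genes. Genes with a mean at or above the median of all probe sets, 7.718, were tested, 11562 in all. limma 3.58.1 (R 4.3.3) fitted stage and genotype with a variance trend, with 2 residual and 5.53 prior degrees of freedom. P-values were adjusted by Benjamini-Hochberg and called at 0.05. The stage in the labels pairs mutant and control, and deviations from genotype means correlated within pairs (r = 0.859, 0.587 and 0.827 across genes for virgin, pregnant and lactating).

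Per-array values are given for the members with extreme called stage ratios (5 at each end), the 4 highest and 4 lowest mutant statistics of constant sign, extreme signals, X-linked genes, paralog pairs and stalk proteins, with some left out, and for up to 4 genes per list by p. Rplp1, Rpl3, Rpl10 and others have no probe set of their own symbol here. Rpl35, Rpl8, Rps19, Rps25, the probe sets of Rps7, Rpl22, Rps15, Rps28 and Rps20, and Tcof1 were picked after their values were seen. The members and lists were chosen with earlier results of these data known.

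Alternatives were quantile normalization, median centring, other pseudocounts and filters, other probe set rules, no variance trend, no genotype or stage term and leaving out arrays. In simulated data with 11562 genes, 50 genes were changed at each of the log2 ratios of 0.5, 1, 2 and 4. Mutant against control recovered 0%, 6%, 46% and 90% of them, and lactating against virgin 0%, 0%, 36% and 82%, with 1 false call each. Far fewer genes were changed there than the 6089 called between lactating and virgin glands. The adjustment is stricter when few genes change, so these shares do not measure the recovery in that comparison. Precision is limited by the number of arrays. Matplotlib 3.10.9 drew the figures.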

Additional observations from a re-analysis of the deposited data

Results flagged for a closer look

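The median mutant to control log2 ratio of the ribosomal protein genes had opposite signs in the pairs, which drew attention to it. With the values as deposited it was 0.124 in the virgin pair, -0.135 in the pregnant pair and 0.105 in the lactating pair, each with 1 mouse per genotype. After quantile normalization the members' share of summed signal was higher in the pregnant mutant and lower in the lactating mutant than in their controls. The medians of the initiation and elongation factor lists had the same order of signs. The difference between the pairs was not tested. The pregnant pair also has other Brca1 genotypes than the other pairs, and genotype and stage cannot be told apart there.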

How the results depend on the processing

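No ribosomal protein gene was called between mutant and control under any alternative run, including the fit with no replicate block (0 called, median 0.0429). The median mutant to control log2 ratio turned to -0.00882 without the lactating arrays and to -0.135 in the pregnant pair alone, and leaving out single arrays gave -0.00882 to 0.114. For pregnant against virgin, 0 members were called with a filter at the 75th percentile, 2 with the mean of probe sets, 2 without the lactating arrays and 0 to 2 without single arrays, where the median ran from -0.237 to 0.00979. For lactating against virgin, median centring called 17 and leaving out single arrays 3 to 8. The median was 0.00658 after quantile normalization, -0.452 after median centring, 0.156 with the filter at the 75th percentile, 0.0578 with cross-hybridising probe sets used only where a gene had no other, 0.0746 with the mean of probe sets and 0.0406 to 0.208 without single arrays. For lactating against pregnant, 5 were called without a filter, 5 with the mean of probe sets and 2 to 7 without single arrays, and the median turned to -0.199 after median centring. The mean share of summed signal was 4.95% in pregnant glands, 5.21% after quantile normalization and 4.504% with the stricter probe set rule. In lactating glands it was 5.87%, and 5.39%, 5.18% and, without milk protein genes, 6.01%. No called member changed direction. Where the text gives no value showing otherwise, the cause of these changes was not tested. Dim members lie near the signal of dark probe sets, which limits their ratios.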
